A study of Homo sapiens with 8 samples.

Results

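Human chromosome 5 held 3189 of the 53021 m6A peaks deposited for METTL3-knockout and wild-type HEK293T cells, 1582 in the knockout list and 1607 in the wild-type list. Its peaks are those whose chromosome column reads 5 in either list. The chromosome was chosen by its number of knockout peaks relative to its number of wild-type peaks, so that ratio is a description here and carries no test. HEK293T is an established human embryonic kidney cell line. The knockout cells are labelled METTL3-/-, and the wild-type cells are the parental line. From both, RNA bound to chromosomes was isolated, freed of DNA and ribosomal RNA, and divided into an m6A immunoprecipitate (IP) and an input. The 8 libraries form 4 groups of 2 replicates (knockout IP, knockout input, wild-type IP, wild-type input). Each peak list stands for the 2 IP and 2 input libraries of its genotype and holds no value per replicate, so no difference between the genotypes below has a replicate check or a test. How METTL3 was disrupted, and whether the knockout line is a single clone, are not given in the sources used here. METTL3 itself, on another chromosome, carried 0 knockout and 2 wild-type peaks.

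METTL3 is the catalytic subunit of the nuclear complex that methylates adenosines of RNA at N6 (m6A), mostly within short motifs around GGAC. Chromosome-associated RNA is rich in unspliced gene transcripts and also holds RNA from intergenic regions and repeats. The centromere of each human chromosome lies in alpha satellite, a tandem repeat. Satellite arrays of some chromosomes, 1, 5 and 19 among them, are so alike that short reads from one can align to another, and the GRCh38 assembly fills these regions with modelled sequence.

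Sequence could be read around annotated starts only, and the sites where the lists met or parted are shown for that reason. In windows from 250 bases before to 50 bases after a start position listed for a gene, of which some genes have several, lay 14 knockout and 22 wild-type peaks of chromosome 5, of which 10 and 13 lay on the strand of the gene. The sequences are from RefSeq (GRCh38.p14), give the part of a window that a peak covered, and run 5′ to 3′ on the strand of the gene. Capitals mark GGACT, a common form of the m6A motif. Both lists held the first 3 sites, the knockout list alone the fourth and the wild-type list alone the fifth. They are CPEB4 at chr5:173888285-173888398 (plus strand), LOC124901102 at chr5:149141877-149142076 (plus), SAP30L-AS1 at chr5:154445773-154445841 (minus), MEF2C at chr5:88823878-88824057 (minus) and SSBP2 at chr5:81750699-81750895 (minus). The MEF2C site is at an internal start, since the gene spans 88717117 to 88904105 on the minus strand.
CPEB4: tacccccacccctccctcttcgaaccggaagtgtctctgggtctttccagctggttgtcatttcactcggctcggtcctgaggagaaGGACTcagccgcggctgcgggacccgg
LOC124901102: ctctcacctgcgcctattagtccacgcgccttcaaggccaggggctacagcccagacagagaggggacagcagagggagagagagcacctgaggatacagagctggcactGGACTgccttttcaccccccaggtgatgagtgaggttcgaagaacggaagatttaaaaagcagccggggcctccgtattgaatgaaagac
SAP30L-AS1: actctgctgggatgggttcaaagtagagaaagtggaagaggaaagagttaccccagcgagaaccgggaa
MEF2C: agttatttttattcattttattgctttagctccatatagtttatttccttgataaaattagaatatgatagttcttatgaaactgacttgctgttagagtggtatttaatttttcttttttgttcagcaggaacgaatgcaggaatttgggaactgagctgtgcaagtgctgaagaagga
SSBP2: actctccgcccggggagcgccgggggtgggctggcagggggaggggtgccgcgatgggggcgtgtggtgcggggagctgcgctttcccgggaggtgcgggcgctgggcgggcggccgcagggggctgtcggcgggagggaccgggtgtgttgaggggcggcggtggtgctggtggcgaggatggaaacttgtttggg

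A fold is the ratio that the authors' peak caller gave for the summit of a peak, of IP to local input with a constant added to each. It lies below the plain ratio of IP to local input, most of all where local input is low. IP reads are whole reads recovered from that fold and its p-value. The site at CPEB4, an RNA-binding regulator of poly(A) tails, had a fold of 6.56 on 80 IP reads in the knockout list and 14.5 on 46 reads in the wild-type list. The site at LOC124901102 had folds of 8.71 on 19 knockout reads and 7.06 on 12 wild-type reads. At SAP30L-AS1 the folds were 8.60 on 20 knockout reads and 11.3 on 21 wild-type reads. The knockout-only site at MEF2C, a transcription factor of muscle and neurons, had a fold of 16.8 on 113 reads, and the wild-type-only site at SSBP2, a single-stranded DNA-binding protein, had 9.89 on 19 reads. IP and input depths differ between the lists, so folds of the 2 lists do not share a scale. Of these sites, GGACT stood in the covered part at CPEB4 and LOC124901102 only, and no other peak on the strand of a gene in these windows covered it. On the strand of the gene it is found in 24.0% of the 1878 chromosome 5 windows and 25.3% of all 35097 windows (42.2% and 44.2% on either strand), so a match is common and describes the letters only. Those shares are of whole windows and not of covered parts. At SAP30L-AS1 the window holds GGACT outside the covered part. None of the 3189 peaks overlapped any of the 66 microRNA hairpins of the chromosome.

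Relative to the wild-type list, the knockout list was longer on chromosome 5 than on most chromosomes. It held 98.4 peaks per 100 wild-type peaks (95% interval 91.8 to 106), against 81.4 (79.9 to 82.8) on the other chromosomes together. Of 23 chromosomes, chromosome 5 ranked 3, after chromosome 14 with 107 and chromosome 19 with 99.5 and before chromosome 18 with 95.3, and the intervals of these neighbours overlapped its own. All such intervals are exact binomial (Clopper-Pearson) and cover counting error only. Peaks of one gene or one stretch are not independent, which makes them too narrow. IP and input depth differ between the genotypes (1 plus-strand IP read counted 0.479 in the knockout fold and 0.607 in the wild-type fold), and the part of depth in the length of the lists was not tested.

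A single stretch near the centromere accounted for most of the difference between chromosome 5 and the other chromosomes. On the minus strand of chr5:47320428-49588015 (GRCh38) the knockout list held 169 peaks, and the wild-type list held 0 on either strand. The stretch, bounded so that it holds no wild-type peak on its own strand, is called the run below. Its peaks were 10.7% of the knockout peaks of the chromosome and 22.2% of those on its minus strand, within 1.25% of the span that peaks cover. Without the run, chromosome 5 held 1413 knockout and 1607 wild-type peaks, or 87.9 per 100 (81.8 to 94.5). The chromosome still ranked 3 when similar stretches of chromosomes 1 and 19, described below, were left out too, after chromosome 14 with 107 and chromosome 18 with 95.3.

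**Figure D1:**
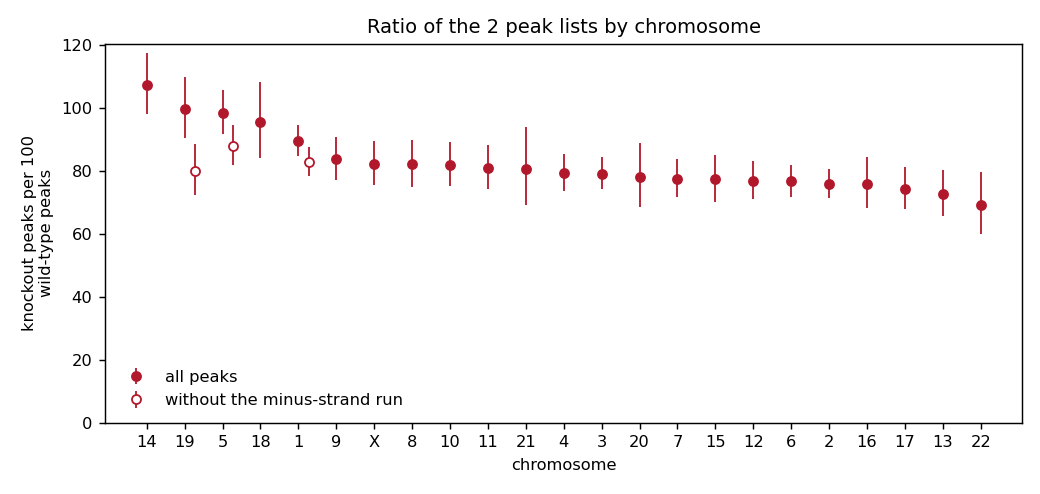
Knockout peaks per 100 wild-type peaks (vertical axis, from 0) for each chromosome (horizontal axis, ordered by the ratio), with 95% Clopper-Pearson intervals. Filled points use all peaks and open points leave out the minus-strand run; chromosome 5 moves to 87.9 without it, from a filled point at 98.4.

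The run lay in a region without annotated genes. No RefSeq gene of any kind overlapped it, and the nearest on the long-arm side was EMB, which encodes a cell adhesion protein and starts at 50396192. The nearest wild-type peaks of the minus strand started at 46034786 and 50185404, which left 4.15 Mb without one. Inside the run the knockout peaks followed each other at a median spacing of 8.72 kb (quartiles 3.95 and 16.0, longest 70.0 kb). That made 74.5 peaks per Mb, against 3.30 per Mb on the rest of the minus strand. They were spread evenly, with 16 to 23 peaks in each of the 9 full 250-kb windows.

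The peaks of the run had a median fold of 8.01 (quartiles 6.46 and 9.65), against 6.94 (5.89 and 8.41) for the 591 other minus-strand knockout peaks of the chromosome. The strongest, at chr5:49397818-49398099, had a fold of 22.3 on 69 IP reads, and the next, at chr5:49283977-49284237, had 19.5 on 131 reads. A peak of the run rested on a median of 34 reads. Local input lay above its lowest level at most of them. The local input, given as a multiple of the lowest level the peak caller used for that list and strand, had a median of 7.43 in the run. It was 2.38 at the 81 other minus-strand knockout peaks outside genes. The median of the run is a local input of 1.00 on the scale of the peak caller, against a lowest level of 0.135, and both are small. Only 2.96% of the peaks in the run stood at that lowest level, against 25.9% of those 81. Local input in wild type could not be compared, as the wild-type list holds values at its own peaks only.

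The other strand of the same region was almost empty. Within the run 2 plus-strand knockout peaks were found, starting at 47879444 (fold 4.17 on 8 reads) and 47931592 (fold 6.65 on 14 reads). A group of 4 plus-strand knockout peaks lay just upstream of the run, between 49621449 and 49645107, which is 33.4 to 56.8 kb from its end. Their folds were 14.4, 10.3, 10.5 and 5.60, on 52, 48, 49 and 138 reads. No wild-type peak lay beside them.

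The chromosome 5 run was 1 of 3 of its kind. A one-list stretch is a row of neighbouring peaks on 1 strand of 1 list with no peak of the other list between them. The 3 longest such stretches among knockout peaks were all on a minus strand, with 187 peaks on chromosome 1, 169 on chromosome 5 and 166 on chromosome 19. The next held 33 peaks, in LINGO2 on chromosome 9, and the longest stretch of wild-type peaks alone held 56, on chromosome 6. In chromosomes 1 and 19 the stretches also lay outside genes, at chr1:122516571-124741575 for 181 of its 187 peaks and at chr19:24922011-27186841.

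The peaks of these stretches lay at matching distances. After a constant shift of 75194063 bp, 83 of the 169 chromosome 5 peaks (49.1%) overlapped a peak of chromosome 1, which was 45.9% of the 181 there. After a shift of -22400495 bp, 81 (47.9%) overlapped a peak of chromosome 19, which was 48.8% of the 166 there. The next best shifts gave 12 and 9 overlaps. The shifts were found from the peaks themselves. Summits of overlapping peaks differed by a median of 12 bp for chromosome 1 and 8 bp for chromosome 19. Of the 169 peaks, 54 overlapped both chromosomes, 56 exactly 1 of them and 59 neither. The median folds were 8.01 on chromosome 5, 8.13 on chromosome 1 and 7.84 on chromosome 19, and the median local input was 7.43 times the lowest level on each. Local input takes stepped values. The same 7.43 was the third quartile at the 81 other minus-strand knockout peaks outside genes on chromosome 5, so equal medians are no sign of a match. The wild-type list held 0 peaks in the matching parts of both chromosomes, which on the minus strand follows from the definition of a one-list stretch. No genome sequence or repeat annotation was used here, and how the authors handled reads with several equal alignments was not stated in the sources used here. Which of the 3 chromosomes the RNA came from cannot be told apart with these files, and the run should be read as uncertain in its placement.

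**Figure D2:**
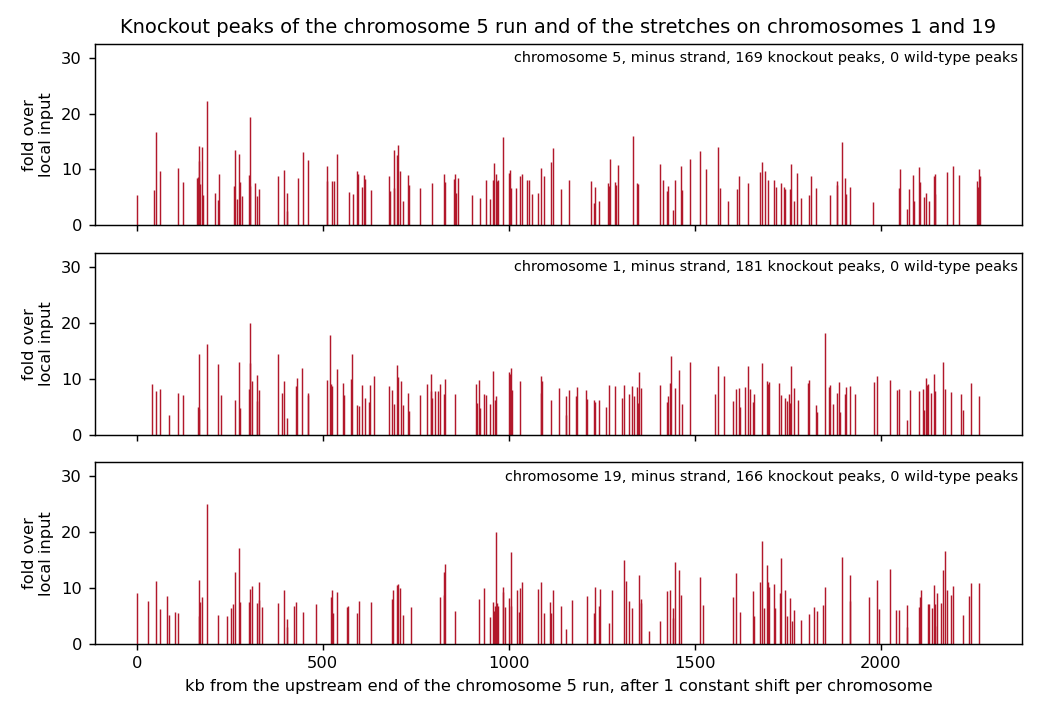
Fold of IP over local input (vertical axis, linear) for each knockout peak of the run on chromosome 5 and of the matching stretches of chromosomes 1 and 19, against distance in kb from the upstream end of the chromosome 5 run after 1 constant shift per chromosome. Each line is a peak. Many lines stand at the same distance on all 3 chromosomes, and the stretches hold no wild-type peak of the minus strand by definition.

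Once the run was set aside, the ratio was similar on both arms and nearer to that of the other chromosomes. With the boundary at 48 Mb, the short arm held 263 knockout and 247 wild-type peaks, or 106 per 100 (89.2 to 127). The long arm held 1319 knockout and 1360 wild-type peaks, or 96.99 (89.8 to 105). That boundary cuts the run and leaves 50 of its peaks on the short arm and 119 on the long arm. Without the run, the ratio was 86.2 (71.5 to 104) on the short arm, from 213 knockout and 247 wild-type peaks, and 88.2 (81.6 to 95.4) on the long arm, from 1200 knockout and 1360 wild-type peaks. The other chromosomes stood at 81.4. That value still counts the matching knockout peaks of chromosomes 1 (181) and 19 (166), and leaving them out would lower it. A boundary at 50 Mb places the whole run on the short arm and gives 156 there and 87.9 on the long arm. A boundary at 46 Mb places it on the long arm and gives 85.4 on the short arm and 101 on the long arm.

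Strand and gene annotation divided the difference further. Outside every gene, chromosome 5 had 410 knockout and 258 wild-type peaks, or 159 per 100 (136 to 186), against 89.0 (84.8 to 93.5) on the other chromosomes. Without the run there were 241 knockout and 258 wild-type peaks, or 93.4 (78.0 to 112). The 89.0 of the other chromosomes still counts the matching stretches of chromosomes 1 and 19, so it is no like comparison for 93.4. Inside coding or long noncoding genes the ratio was 86.7 (80.0 to 94.0), from 1121 knockout and 1293 wild-type peaks, against 80.1 (78.6 to 81.7) elsewhere. On the minus strand it was 100.3 (90.5 to 111) with the run and 78.0 (69.9 to 86.9) without it, against 77.2 (75.2 to 79.3) elsewhere. On the plus strand, which the run does not touch, 822 knockout and 849 wild-type peaks gave 96.8 (87.9 to 107), against 85.0 (83.0 to 87.0) elsewhere. By arm, the plus strand held 701 knockout and 728 wild-type peaks on the long arm (96.3 per 100) and 121 in each list on the short arm. Without the run, the ratio thus stood further above that elsewhere on the plus strand than on the minus strand, as a description of the counts that chose the chromosome. The minus-strand value elsewhere still counts the matching knockout peaks of chromosomes 1 (181) and 19 (166). It is therefore no like comparison for chromosome 5 without the run.

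Along the chromosome the ratio changed from bin to bin without a block of high values. Of 37 bins of 5 Mb, numbered from the short-arm end, 35 held at least 20 peaks. In 17 of the 35 the ratio lay above that of all chromosomes together (82.3), against 45.3% of the 572 such bins of the genome. The median bin stood at 82.0 (quartiles 74.3 and 96.7) on chromosome 5 and at 80.3 (66.7 and 94.7) on the other chromosomes. The interval of a bin lay wholly above 82.3 in 3 bins, held it in 32 and lay wholly below it in 0. On the short arm 3 of 8 bins were above, with a median of 78.9, and on the long arm 13 of 26, with a median of 83.3. Bin 10, which spans the boundary and contains the run, is in neither count.

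**Figure D3:**
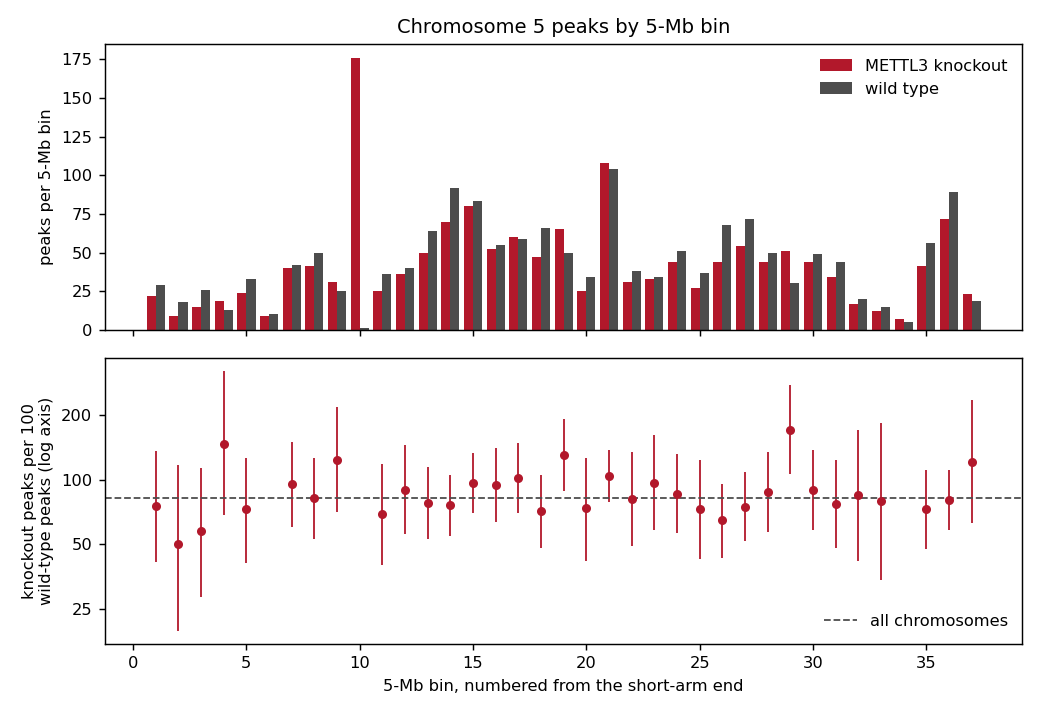
Upper panel, peaks per 5-Mb bin of chromosome 5 in the knockout and wild-type lists (bars from 0). Lower panel, knockout peaks per 100 wild-type peaks on a log axis with 95% Clopper-Pearson intervals, for bins with at least 20 peaks other than bin 10, and the value of all chromosomes (82.3) as a dashed line; bin 10 stands out above with 176 knockout peaks against 1 wild-type peak.

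The 3 highest bins differed in kind. Bin 10 (45 to 50 Mb) held 176 knockout peaks and 1 wild-type peak, all outside coding and long noncoding genes, of which 169 knockout peaks are the run. Bin 29 (140 to 145 Mb) held 51 knockout and 30 wild-type peaks, or 170 (106 to 276). ANKHD1 with its readthrough partner had the largest excess of a single locus there, 13 knockout and 8 wild-type peaks, which is only part of the difference. ARHGAP26, which encodes a GTPase-activating protein, had 6 knockout and 3 wild-type peaks. Bin 4 (15 to 20 Mb) held 19 knockout and 13 wild-type peaks, or 146 (68.5 to 322). FBXL7 alone, with 9 knockout peaks and 1 wild-type peak, exceeded the difference. The other bin whose interval lay above was bin 19 (90 to 95 Mb), with 65 knockout and 50 wild-type peaks, where ADGRV1 had 17 knockout and 14 wild-type peaks and NR2F1-AS1 had 8 and 5. The 3 lowest bins were bin 2 with 9 knockout and 18 wild-type peaks, bin 3 with 15 and 26 (57.7 per 100) and bin 26 with 44 and 68 (64.7 per 100), and the interval of each held 82.3.

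Of the 1918 coding and long noncoding genes on chromosome 5, 633 had at least 1 peak, and more of them favoured wild type than the knockout. More knockout than wild-type peaks were found in 235 genes (37.1%), against 32.7% of the 12198 genes with a peak on all chromosomes. More wild-type than knockout peaks were found in 296 (46.8%), against 51.0%, and the counts were equal in 102. A difference of 3 peaks or more favoured the knockout in 26 genes (4.11%, against 4.30% of all) and wild type in 51 (8.06%, against 9.44%). On the short arm 31 genes had more knockout and 54 more wild-type peaks, and on the long arm 204 and 242. Of the 496 coding genes 195 (39.3%) favoured the knockout and 215 (43.3%) wild type, against 31.9% and 51.0% of coding genes on all chromosomes. Of the 137 long noncoding genes 40 (29.2%) favoured the knockout and 81 (59.1%) wild type, against 35.7% and 51.0% on all chromosomes. Gene bounds were used regardless of strand, and a peak in overlapping genes counted for each.

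The strands of the peaks fitted those of the genes in both lists. Among peaks in exactly 1 coding gene, 93.8% of 835 knockout and 93.9% of 954 wild-type peaks lay on the strand of that gene. In long noncoding genes the shares were 86.8% (77.1 to 93.5) of 76 knockout and 81.2% (71.2 to 88.8) of 85 wild-type peaks, against 76.2% and 75.8% on the other chromosomes.

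The genes with the largest excess of knockout peaks were spread over both arms. WDR70, a WD-repeat protein gene at chr5:37379318-37753435, had 16 knockout and 8 wild-type peaks, all on the strand of the gene, of which 3 in each list overlapped. One of these shared sites, starting at 37391805, had a fold of 33.8 on 125 knockout reads and 7.79 on 101 wild-type reads. The last 5 knockout peaks of the gene, between 37744056 and its end, had no wild-type partner and folds from 6.57 to 10.6. WDR70 therefore combined sites common to the lists with a knockout-only group at its downstream end.

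FBXL7, which encodes a substrate receptor of an SCF ubiquitin ligase (chr5:15500180-15939793), had 9 knockout peaks with folds from 4.21 to 15.3, the strongest on 68 reads, and 1 wild-type peak with a fold of 8.28 on 15 reads. None overlapped. ADAMTS12, a secreted metalloprotease gene (chr5:33523535-33891990), had 8 knockout peaks and 0 wild-type peaks. Its folds ran from 5.51 to 9.37, on 12 to 28 reads at the peaks whose reads were recovered (all but the peak starting at 33770863). LINC01411, a long noncoding gene, had 8 knockout peaks with folds from 5.82 to 8.82 and 1 wild-type peak with a fold of 6.90. GHR, the growth hormone receptor gene, had 8 knockout and 2 wild-type peaks, of which 1 pair overlapped. The strongest of its knockout peaks, with a fold of 17.4 on 77 reads, lay on the opposite strand.

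ANKHD1, a gene for an ankyrin-repeat and KH-domain protein, had 12 knockout and 8 wild-type peaks, and the readthrough gene ANKHD1-EIF4EBP3, which contains it, had 13 and 8. They share their peaks and count as 1 locus. Of the knockout peaks 7 overlapped 6 wild-type peaks. ATG10, an E2-like enzyme of autophagy, had 8 knockout and 4 wild-type peaks, none of them shared. ADGRV1, a very large adhesion receptor, had 17 knockout and 14 wild-type peaks, 3 of each shared. LOC105379066, a long noncoding gene, had 6 knockout peaks and 1 wild-type peak, and all 7 lay on the strand opposite to the gene and not on its transcript. Of the 10 genes, ADAMTS12 alone is a minus-strand gene.

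An excess of wild-type peaks reached the same size, 8 peaks in a gene. DNAJC21, a J-domain cochaperone gene of ribosome maturation, had 0 knockout and 8 wild-type peaks within 29.4 kb at chr5:34929559-34958964. Its wild-type folds were 21.4, 6.64, 9.66, 8.59, 5.26, 7.54, 8.21 and 5.61 in order along the gene, on 83, 64, 27, 21, 33, 14, 20 and 15 reads. The first of them was the strongest wild-type-only peak of the chromosome within a single gene. BRIX1, the gene next to it with a role in ribosome assembly, had 2 knockout peaks and 1 wild-type peak. A knockout-only peak at its start had a fold of 8.65 on 117 reads, and the shared site had folds of 12.0 in the knockout list and 16.9 in the wild-type list.

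CDH12, a cadherin gene, had 11 knockout and 18 wild-type peaks, 2 of each shared. Of its knockout peaks 3 lay on the opposite strand, against 0 of its wild-type peaks. CPLANE1, a gene of ciliogenesis, had 9 knockout and 16 wild-type peaks. CWC27, a spliceosomal cyclophilin gene, and SIMC1, a gene for a protein with SUMO-interacting motifs, each had 8 knockout and 14 wild-type peaks. EFNA5, an ephrin ligand of axon guidance, had 6 and 12. MYO10, an unconventional myosin of filopodia, and SRFBP1, a serum response factor binding protein, each had 3 knockout and 9 wild-type peaks. All of the knockout and wild-type peaks of CPLANE1, CWC27, SIMC1, EFNA5, MYO10 and SRFBP1 lay on the strand of the gene.

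**Figure D4:**
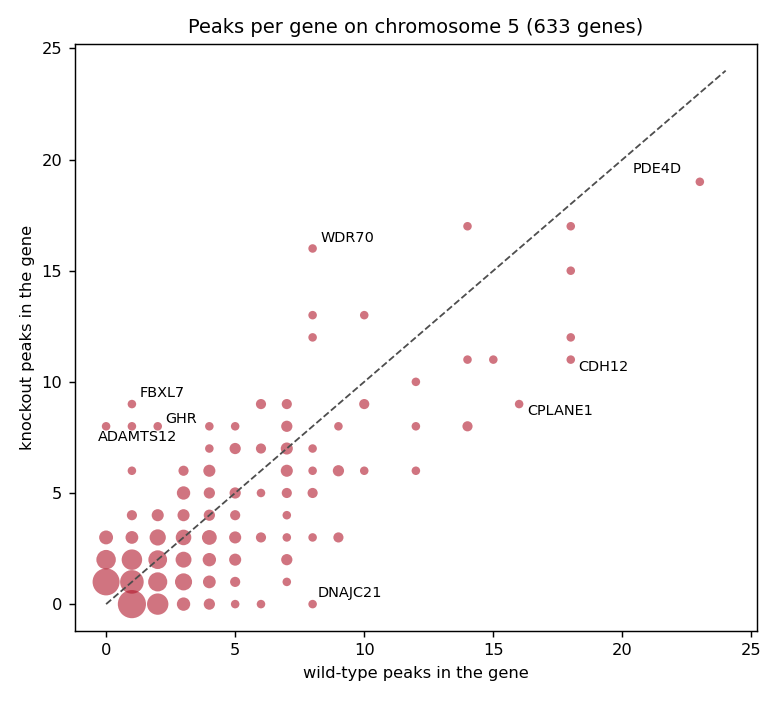
Knockout peaks (vertical axis) against wild-type peaks (horizontal axis) for the 633 chromosome 5 genes with a peak; the area of a point grows with the number of genes at that pair of counts, and the dashed line marks equal counts. Genes at the upper left, such as FBXL7 and ADAMTS12, had knockout peaks with at most 2 wild-type ones, and DNAJC21 had 8 wild-type peaks and no knockout peak.

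Gene groups of the chromosome showed small and mixed differences. The median gene with a peak had a difference of 0 between the lists, over all 633, of which 37.1% favoured the knockout and 46.8% wild type. The counts of each group are to be read against these shares, and its number of genes with a peak against 633 of 1918. Of 5 ADAMTS protease genes 4 had a peak, with 21 knockout and 26 wild-type peaks in all and a median difference of -3.5. ADAMTS12 favoured the knockout, while ADAMTS19 had 12 knockout and 18 wild-type peaks, ADAMTS6 had 1 and 7, and ADAMTS2 had 0 and 1. In ADAMTS19, 9 of the 12 knockout peaks and 7 of the 18 wild-type peaks lay on the opposite strand. The group thus held large differences in both directions.

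Of 30 genes of RNA binding, decay and translation 22 had a peak, 11 with more knockout and 8 with more wild-type peaks (over all 633 genes 37.1% and 46.8%), from 53 knockout and 51 wild-type peaks in all. YTHDC2, a helicase that binds m6A, had 6 knockout and 4 wild-type peaks, 3 of each shared. MTREX, the RNA helicase that feeds the nuclear exosome, had 5 knockout and 3 wild-type peaks, none shared. LARP1, a regulator of translation, had 6 and 7, DDX46, a splicing helicase, had 4 and 3, and DROSHA, the nuclease that starts microRNA processing, had 3 and 4. With SRFBP1 these are the members with the most peaks.

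Of 24 chromatin, cohesin and DNA repair genes 17 had a peak, 6 with more knockout and 8 with more wild-type peaks, near the shares of 37.1% and 46.8% over all 633 genes (68 knockout and 73 wild-type peaks). RAD50 and XRCC4, both of DNA break repair, each had 9 knockout and 6 wild-type peaks, and MSH3, of mismatch repair, had 8 and 7. NIPBL, the cohesin loader, had 6 knockout and 9 wild-type peaks, the chromatin remodeller CHD1 had 5 and 8, and MEF2C had 7 and 8.

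Among 35 signalling and cell cycle genes 23 had a peak, 6 with more knockout and 14 with more wild-type peaks (over all 633 genes 37.1% and 46.8%), and a median difference of -1 against 0 over all. PDE4D, a cyclic AMP phosphodiesterase, had the most peaks of them, 19 knockout and 23 wild-type. The tyrosine kinase FER had 11 and 14, and APC, of the Wnt pathway, had 6 and 9. RASA1, a Ras GTPase-activating protein, had 9 and 10, CCNH, a cyclin of the CDK-activating kinase, had 9 and 7, and MAST4 had 9 and 7. RASA1 and CCNH overlap and share peaks, so they are not separate counts.

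Of 15 cadherin, catenin and axon guidance genes 9 had a peak (27 knockout and 39 wild-type peaks, 3 genes favouring the knockout and 4 wild type). CDH12 and EFNA5 carried most of the difference. SEMA6A had 1 knockout and 5 wild-type peaks, CDH10 had 3 and 1, SLIT3 had 3 and 0, and CTNNA1 had 1 and 1. Of 11 nuclear genes of oxidative phosphorylation and ribosomal proteins 5 had a peak, with 12 knockout and 13 wild-type peaks. NDUFAF2, an assembly factor of respiratory complex I, had 7 in each list, and NDUFS4, a subunit of that complex, had 3 and 4. RPL26L1 had 0 and 2, and RPL37 and SDHA each had 1 and 0.

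Of 17 channel and receptor genes of excitable cells 2 had a peak, against 633 of all 1918 coding and long noncoding genes of the chromosome. They were TRPC7, with 1 knockout and 1 wild-type peak, and KCNIP1, with 1 and 0. Of 54 protocadherin cluster genes 31 had more knockout peaks, but they share long overlapping bodies, and only 3 separate knockout and 0 wild-type peaks lay behind that count. PCDHGA1 to PCDHGA6 each had 2 of these knockout peaks.

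Most peaks of either list had no partner at the same place. With an overlap of 1 bp or more on the same strand, 392 of 1582 knockout peaks (24.8%, 22.7 to 27.0) were shared, against 24.8% of all knockout peaks. Without the run the share was 27.7% (25.4 to 30.2). Of the wild-type peaks 393 of 1607 (24.5%, 22.4 to 26.6) were shared, against 20.4% of all wild-type peaks and 20.2% (19.7 to 20.7) of those on the other chromosomes. Within genes 28.4% of knockout and 24.7% of wild-type peaks were shared. Outside genes and without the run the shares were 21.6% (16.6 to 27.3) and 19.8% (15.1 to 25.2), against 15.8% and 14.4% on the other chromosomes. On the plus strand 29.6% (26.5 to 32.8) of knockout and 28.7% (25.7 to 31.9) of wild-type peaks were shared, against 26.2% and 22.3% on the other chromosomes. On the minus strand without the run the shares were 25.2% (21.8 to 28.9) and 19.7% (16.9 to 22.7), against 23.1% and 17.8% there. The knockout shares of the other chromosomes, and of all knockout peaks, still count the matching peaks of chromosomes 1 (181) and 19 (166). They are therefore no like comparison for the knockout shares of chromosome 5 without the run. The intervals of the strands overlapped in the knockout list.

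The strongest shared peaks within a single gene lay in DMXL1, PARP8, DDX46, CWC27, IK and TRIO. At DMXL1, linked to the assembly of the proton pump of vesicles, the knockout fold was 6.67 on 151 reads and the wild-type fold 35.8 on 128 reads. At PARP8, an ADP-ribosyltransferase gene, they were 10.6 on 152 knockout reads and 32.1 on 104 wild-type reads. At DDX46 they were 17.7 on 99 reads and 22.2 on 94 reads, and at CWC27 13.3 on 30 and 19.5 on 37. At IK, a spliceosome component, they were 20.4 on 66 knockout reads and 19.3 on 62 wild-type reads, and at TRIO, a guanine nucleotide exchange factor, 14.9 on 79 and 19.3 on 62. These sites were ranked by their wild-type fold, which favours higher values there.

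Both lists also held strong peaks without a partner. Among the leading knockout-only peaks were those in ERBIN, a scaffold protein gene (fold 19.2 on 71 reads), CSNK1G3, a casein kinase gene (18.98 on 85), SRD5A1, a steroid 5-alpha-reductase gene (18.8 on 60), and CHSY3, a chondroitin sulfate synthase gene (18.2 on 104). The leading wild-type-only peaks lay in DNAJC21 (21.4 on 83), TTC1 (19.4 on 40), ADAMTS19 on the opposite strand (19.1 on 39), UBTD2 (18.96, reads not recovered) and RICTOR, a subunit of mTOR complex 2 (18.4 on 67). Peaks missing from the other list were thus not only weak ones.

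Local input was examined at shared peaks, where both lists give a value, so it leaves out the run and every other peak of a single list. It was expressed for each list and strand as a multiple of the lowest level used by the peak caller, which removes the difference in input depth. Over 391 shared pairs of chromosome 5, the median log2 ratio of knockout over wild-type local input was -0.15 (95% order-statistic interval of the median -0.29 to -0.00, quartiles -0.89 and 0.60). Over 5518 pairs of the other chromosomes it was -0.04. Input was higher in the knockout at 44.0% of the chromosome 5 pairs. The short arm stood at 0.12 (-0.07 to 0.63, 49 pairs) and the long arm at -0.21 (-0.34 to -0.06, 342 pairs). Chromosome 5 ranked 17 of 23 by this median, while chromosome 14 had 0.61 and chromosome 18 had 0.35. In 16 bins with at least 10 pairs, the median lay above 0 in 3.

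IP over local input at the same pairs, centred on the median of the other chromosomes, had a median log2 ratio of knockout over wild type of 0.04 (-0.09 to 0.16). Its interval held 0 on chromosome 5 and on both arms. Pairs are not replicates, and these are bulk libraries, in which fewer cells with an RNA and less of that RNA per cell cannot be told apart.

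**Figure D5:**
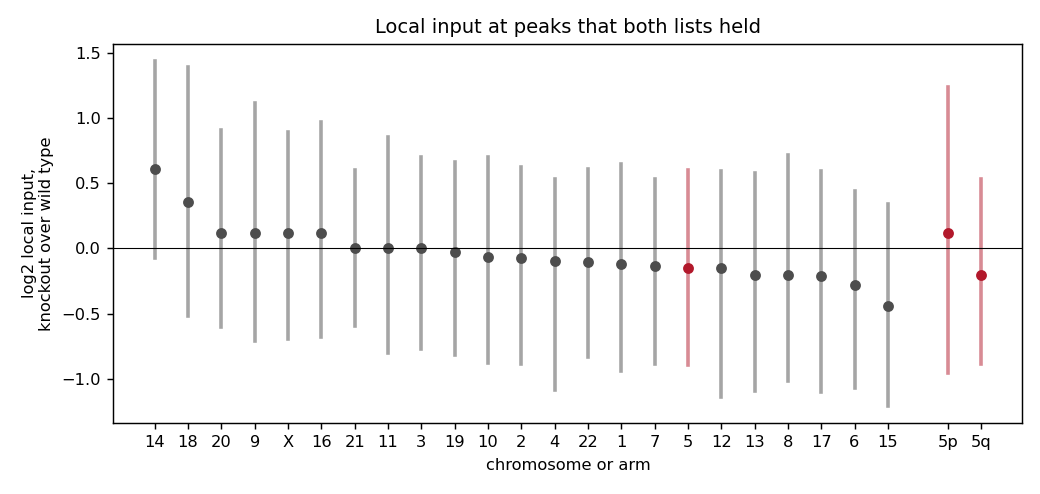
Median (points) and quartiles (bars) of the log2 ratio of knockout over wild-type local input at peaks that both lists held, for each chromosome ordered by the median and, at the right, for the 2 arms of chromosome 5. Chromosome 5 stands at -0.15, its short arm at 0.12 and its long arm at -0.21, with quartiles that span 0 throughout.

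Peaks outside genes clustered into intergenic runs. Apart from the minus-strand run, these held near-equal numbers of peaks of both lists in total, though single groups did not. Peaks of both lists on 1 strand that lay in no gene of any kind were joined when at most 50 kb apart, and groups of 5 or more were kept. Chromosome 5 had 22 such groups, 12 with more knockout and 7 with more wild-type peaks. Of these 6 were pieces of the minus-strand run, which by its definition holds no wild-type peak on that strand. The remaining 16 groups held 125 knockout and 124 wild-type peaks, 6 with more knockout and 7 with more wild-type peaks, and each held peaks of both lists. Single groups leaned either way, such as 39 knockout and 23 wild-type peaks, 15 and 5, 4 and 10, or 2 and 10. The other chromosomes had 220 groups, 73 with more knockout and 123 with more wild-type peaks, of which 15 held no wild-type and 22 no knockout peak. These still count pieces of the matching stretches of chromosomes 1 and 19, the largest with 63 and 51 knockout and 0 wild-type peaks. They are therefore no like comparison for the 16 groups.

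The group with the most peaks lay on the plus strand at chr5:104115958-104419093, 10.5 kb from the long noncoding gene NIHCOLE, with 39 knockout peaks, 14 of them shared, and 23 wild-type peaks. The next 3 were pieces of the minus-strand run with 57, 41 and 29 knockout peaks. The fifth, on the minus strand at chr5:101868852-102108578, had 10 knockout and 16 wild-type peaks, 2 of the knockout peaks shared, and lay between LOC105379102 and SLCO4C1, an organic anion transporter gene. The 2 large groups of both lists on the long arm thus leaned in opposite directions, whereas the pieces of the minus-strand run hold knockout peaks alone by its definition.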

How the data were processed

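Chromosome-associated RNA of METTL3-knockout and parental HEK293T cells was measured as m6A IP and input, 2 replicates each. Per the submitters' processing notes, the tools included MACS2 2.2.7.1, the aligner HISAT2 2.2.1 and SAMtools 1.15.1, on build hg38; settings, thresholds and pooling of replicates are not given in the sources used here. The authors deposited 1 peak list per genotype in the layout of MACS2. Its fold column is the deposited ratio of IP over local input, which the recovery below read as having a constant added to both terms. Its −log10 columns are the deposited −log10 of p and q, and its deposited score column was not used. The members, the gene lists and the comparisons were chosen with earlier results of these data known.

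Peaks were set against RefSeq gene bounds (GRCh38.p14) with pandas 2.3.3 and numpy 2.4.6 under Python 3.11.15, intervals came from SciPy 1.17.1 and plots from matplotlib 3.10.9. IP reads and local input were recovered from fold and p, for 96.35% to 99.47% of peaks by list and strand (whole within 0.03 reads), and the recovery was tested on simulated peaks. One IP read counted 0.479 (plus) and 0.438 (minus) in the knockout fold, against 0.607 and 0.572 in the wild-type fold. Library totals are not in these lists, so depth per sample is unknown. The text names the 10 genes with the largest excess in each direction, the strongest peaks of single genes (6 shared, 5 of each list alone, 1 per gene), the 5 intergenic groups with the most peaks, the 3 highest and 3 lowest bins, and up to 6 members of each gene list with the most peaks. Some items that this rule would name are not reported here. Promoter sites and the genes of the bins, BRIX1 among them, were chosen after their values were seen. No test between genotypes was possible. Alternatives covered peak strength, gene annotation, bin size, arm boundary, overlap and the run.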

Additional observations from a re-analysis of the deposited data

How the results depend on the processing

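Of 53 alternatives for 11 results, 28 moved the value by less than its interval or a count by less than 1.5 times, and 25 moved it further. Leaving out the minus-strand run, a choice made after seeing the data, gave 87.9 knockout peaks per 100 wild-type peaks on chromosome 5, 86.2 on the short arm and 88.2 on the long arm, and leaving out bin 10 gave 87.5, 85.4 and 87.9. Peaks in genes gave 86.7, 85.2 and 87.0, and peaks outside genes 159, 231 and 148. With the 23937 strongest peaks of each list by −log10 q the values were 120, 129 and 118, while the other chromosomes then stood at 98.8. A boundary at 46 Mb gave 85.4 on the short arm, and one at 50 Mb gave 156 there and 87.9 on the long arm. Bins of 2 Mb put 35 of 66 above the ratio of all chromosomes and bins of 10 Mb 11 of 19, counts that follow the number of bins. The shared part of the knockout list was 20.7% with reciprocal overlap of 50%, 21.3% with summits within 100 bp and 27.7% without the run, and that of the wild-type list 20.4% and 21.0% under the first 2 of these. The cause of each other shift was not tested. No paired analysis was possible because the lists hold no values per replicate, and leaving out a replicate could not be run for the same reason. Alternatives on local input and IP over input, on genes and on intergenic groups stayed within these limits.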
